A study of Mus musculus with 6 samples.

Results

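The genes described here are the 4 Notch receptors (Notch1, Notch2, Notch3 and Notch4), the ligands Jag1, Jag2, Dll1 and Dll4, the DNA-binding effector Rbpj and the target gene Hes1. They were taken by symbol through the Entrez Gene number that names each probe set, and all 10 were found among the 23185 named genes of the array table. The data compare hematopoietic stem cells (HSCs) of WT mice with those of Merit40-/- mice, which lack the Merit40 protein encoded by Babam1, a shared subunit of deubiquitinase complexes. All mice were young, and no treatment was given to either group. The cells were CD150+CD48- LSK cells (lineage-negative, Sca-1+, c-Kit+), sorted in 2 rounds from adult bone marrow and used fresh. RNA of each sample, 50 ng, was hybridised to an Affymetrix mouse gene array, with 3 biological replicates of each genotype. The sources used here do not say how the Merit40 allele was made, which strain carried it or how many mice stand behind an array. The p-values therefore measure the spread between these arrays.

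Notch signalling passes between touching cells. A Delta-like or Jagged ligand on one cell pulls on a Notch receptor of its neighbour, the receptor is cut by an ADAM protease and then by gamma-secretase, and the freed intracellular domain enters the nucleus. There it joins Rbpj and a Mastermind coactivator and switches on target genes, of which the transcriptional repressor Hes1 is the best known. Without the intracellular domain, Rbpj sits with corepressors. In blood formation the pathway is known for the specification of the first HSCs in the embryo through Notch1 and for T cell commitment, while Notch2 has been linked to HSC recovery after stress.

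The values are log2 expression values made with RMA, a method that corrects background, gives all arrays the same distribution and combines the probes of a gene. Levels of different probe sets are not comparable as amounts of transcript, so each gene is compared with itself across arrays. The median level of all named genes, 4.93, serves as a mark, since no background level was measured here. By their means over all arrays, Notch1, Notch2, Jag2, Dll1 and Hes1 lay above the median and Notch3, Notch4, Jag1, Dll4 and Rbpj below it. Notch3, at a mean of 4.89, lay close to the median, with arrays on both sides of it. Each difference below is the Merit40-/- mean less the WT mean in log2 units, its standard error (SE) comes from limma, and a gene was called at an adjusted p under 0.05 over all 23185 genes.

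The targeted gene matched the labels: Babam1 read 7.91 to 8.05 in WT and 3.87 to 4.29 in Merit40-/-. HSC markers were above the median level in both genotypes (8 of 8 measured), and the T cell markers were all below it (0 of 7 measured above). Cd48, the negative marker of the sort, stood between 4.99 and 5.88 across the arrays, above the median of all genes. The mean of 8 skeletal muscle markers was 8.90 in Merit40-/- replicate 1 and 4.46 to 4.88 in the other 5 arrays. Merit40-/- replicate 2 also lay above every WT array for some of them, as for Tnnt3 (6.38) and Acta1 (6.35). It lay below every WT array for Tnnc2 (5.27). The mean of 8 osteoclast markers was 5.75 in Merit40-/- replicate 3 and 4.46 to 4.63 elsewhere. Ctsk (7.94) and Acp5 (7.91) stood out most in Merit40-/- replicate 3. There Calcr (3.51) and Itgb3 (7.33) lay below every WT array, and Dcstamp (3.58) lay within the WT range. Marker means of the megakaryocyte list (5 measured) were 8.30 to 8.59 in WT and 8.05 to 8.19 in Merit40-/-. Those of the erythroid list (4 measured) were 6.06 to 6.55 in WT and 5.70 to 5.84 in Merit40-/-, so in both lists the genotypes did not overlap. In Merit40-/-, 3 of the 5 megakaryocyte and 4 of the 4 erythroid markers were lower and 7 of the 8 granulocyte and monocyte markers were higher. Limma called 0 of them, where it called 0.00431% of all genes. In each of the 3 lists 2 had an unadjusted p under 0.05 in limma, against 4.22% of all genes. The means overlapped for granulocyte and monocyte markers (6.76 to 7.14 and 7.03 to 7.41), multipotent progenitor markers (7.29 to 7.52 and 7.46 to 7.54) and HSC markers (8.28 to 8.55 and 8.44 to 8.67). They also overlapped for B cell markers (4.36 to 4.69 and 4.34 to 4.98), T cell markers (3.76 to 3.81 and 3.56 to 3.96), endothelial markers (5.60 to 5.67 and 5.66 to 5.81) and mesenchymal stromal markers (4.41 to 4.61 and 4.43 to 4.56). In such sorted pools, fewer cells of a type and less RNA per cell cannot be told apart.

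No Notch receptor, ligand or effector passed the test between genotypes. Of the 10 genes, 0 were called by limma, where 1 of all 23185 genes was (0.00431%), and the smallest adjusted p among them was 0.999. At an unadjusted p under 0.05 there was 1 of the 10, Dll4, against 4.22% of all genes. Dll4 was also the 1 gene whose arrays did not overlap between genotypes, against 9.05% of all genes. The count of 1 in 10 without overlap is near the share over all genes, so it is no result about these genes as a set. The differences ran from -0.32 (Hes1) to 0.38 (Dll4), with 4 genes higher and 6 lower in Merit40-/- and a median of -0.03, beside a median of 0.0052 over all genes. The plot of the levels by array sets the gap between genotypes beside the scatter of the arrays for each gene.

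**Figure D1:**
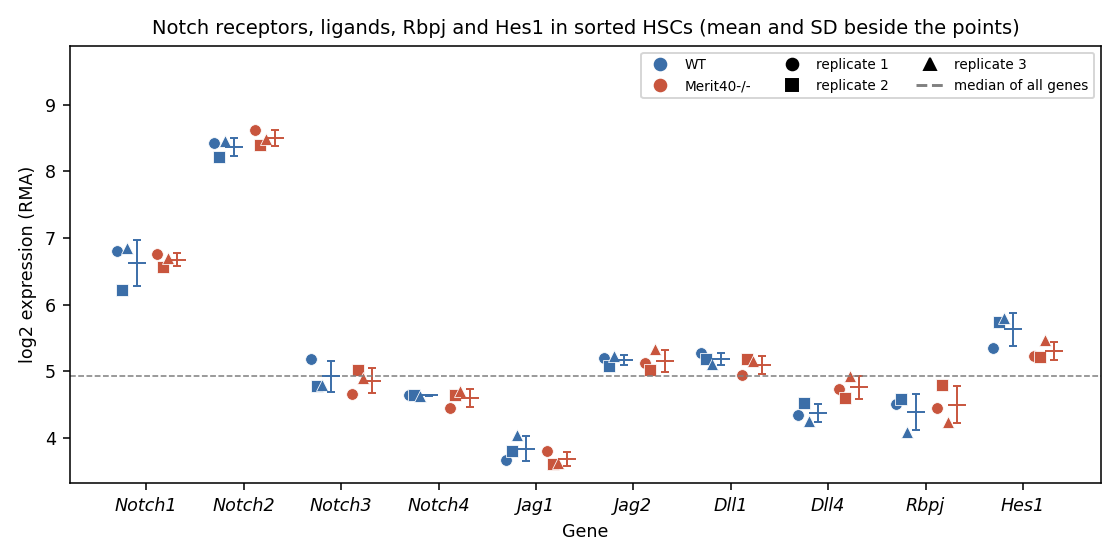
Log2 expression (RMA) of the 10 Notch genes on the 3 WT arrays (blue) and the 3 Merit40-/- arrays (red), with the mean and SD beside each group, replicate numbers as symbols and the median of all genes (4.93) as a dashed line. Dll4 is the gene whose red and blue points do not overlap. The other 9 genes overlap.

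Among the receptors, Notch2 read 8.42, 8.21 and 8.46 in WT and 8.63, 8.39 and 8.49 in Merit40-/-. The WT mean was 8.36 ± 0.14 (SD, n = 3) and the Merit40-/- mean 8.50 ± 0.12 (SD, n = 3), a difference of 0.14 (SE 0.13, 95% interval -0.15 to 0.43) that was 0.06 without WT replicate 2. The lowest array was WT replicate 2 and the highest Merit40-/- replicate 1, and the groups overlapped. Notch1, the receptor best known for T cell fate, read 6.80, 6.22 and 6.85 in WT and 6.76, 6.56 and 6.70 in Merit40-/-. WT replicate 2 was again the lowest, 0.40 below the WT mean, and the difference of 0.05 (SE 0.18) became -0.15 without that array. The Merit40-/- arrays of Notch1 lay closer together (SD 0.10) than the WT arrays (SD 0.35). The long noncoding RNA gene 0610009E02Rik, annotated over the Notch1 locus, differed by 0.16 (SE 0.14), and the number of probes that both share is not known here.

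Notch3 and Notch4, receptors known mainly from vessel walls and endothelium, had group means below the median of all genes. Notch3 read 5.19, 4.78 and 4.80 in WT and 4.66, 5.02 and 4.90 in Merit40-/-, a difference of -0.06 (SE 0.16). It turned to 0.07 without WT replicate 1 and to 0.04 without Merit40-/- replicate 1, so it has no settled direction. Notch4 stood at 4.64, 4.64 and 4.63 in WT, the least scattered WT values of the 10 genes (SD 0.0017). Its Merit40-/- arrays read 4.45, 4.64 and 4.70, and its difference of -0.04 (SE 0.12) turned to 0.04 without the array that carries muscle genes, Merit40-/- replicate 1.

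Of the ligands, Dll4 had the largest difference. Dll4, the Delta-like ligand of arterial endothelium and of the thymic stroma, read 4.34, 4.53 and 4.25 in WT and 4.74, 4.60 and 4.93 in Merit40-/-. All 3 Merit40-/- arrays lay above all 3 WT arrays, the gap between the nearest pair being small. Its level was 4.37 ± 0.14 (SD, n = 3) and 4.76 ± 0.17 (SD, n = 3), a difference of 0.38 (SE 0.14, 95% interval 0.07 to 0.70), or 1.30-fold. The unadjusted p of limma, 0.0236, ranked 418 among 23185 genes, and the adjusted p was 0.999. The difference was 0.30 without Merit40-/- replicate 3, the array with osteoclast genes, and 0.46 without Merit40-/- replicate 2. With both Merit40-/- arrays that carry muscle or osteoclast genes left out, an alternative chosen after seeing the data, it was 0.22, with 1 Merit40-/- array left.

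Both group means of Dll4 lay below the median of all genes. Of the 10 endothelial markers, 7 were higher and 3 lower in Merit40-/-. An unadjusted p under 0.05 in limma was reached by 1 of the 10, against 4.22% of all genes. Emcn, Tie1, Egfl7 and Pecam1 lay above the median of all genes, at differences of 0.45 (Emcn, SE 0.19, unadjusted p = 0.0419), 0.21, 0.12 and -0.02. Cdh5, Cldn5, Kdr, Plvap, Stab2 and Sox17 lay below it, at differences of 0.23, 0.18, 0.0031, 0.16, -0.12 and -0.14. The list means, 5.60 to 5.67 in WT and 5.66 to 5.81 in Merit40-/-, overlapped, with the higher range in Merit40-/-, the direction of Dll4. Of the Merit40-/- arrays, replicate 2 had the highest list mean (5.81) and the lowest Dll4 (4.60). The part of these markers in the Dll4 difference was not tested. The noncoding gene Gm14207 is annotated across the Dll4 start in RefSeq, on the opposite strand. It read 3.93, 3.91 and 4.49 in WT and 3.84, 3.88 and 3.86 in Merit40-/-, a difference of -0.25 (SE 0.17) that was -0.06 without WT replicate 3, its highest array.

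The other 3 ligands differed by less than Dll4, and in each the groups overlapped. Jag1 read 3.67, 3.80 and 4.04 in WT and 3.80, 3.61 and 3.63 in Merit40-/-, all below the median of all genes, with a difference of -0.16 (SE 0.14) that was -0.06 without WT replicate 3 and -0.24 without WT replicate 1. Jag2 read 5.19, 5.08 and 5.23 in WT and 5.12, 5.02 and 5.33 in Merit40-/-, a difference of -0.01 (SE 0.13). Jag2 turned to 0.02 without WT replicate 3, to 0.0038 without Merit40-/- replicate 1 and to 0.05 without Merit40-/- replicate 2. Dll1 read 5.28, 5.18 and 5.10 in WT and 4.94, 5.19 and 5.15 in Merit40-/-, and Merit40-/- replicate 1 was its lowest array. Its difference was -0.10 (SE 0.12), and -0.02 without that array.

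Rbpj, the transcription factor on which all 4 receptors converge, read 4.51, 4.59 and 4.09 in WT and 4.46, 4.80 and 4.24 in Merit40-/-. Replicate 3 was the lowest array in both genotypes, and the range over the 6 arrays, 0.71, was the widest of the 10 genes. The difference of 0.10 (SE 0.19) turned to -0.05 without WT replicate 3 and to -0.05 without Merit40-/- replicate 2. Its probe set lay below the median of all genes. RefSeq lists 3 Rbpj pseudogenes (Rbpj-ps1, Rbpj-ps2 and Rbpj-ps3), which were not analysed here. Whether its probes also read these copies is not known, so the Rbpj value is uncertain as a measure of the gene alone.

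The start regions of these genes were searched for the core that Rbpj recognises. RefSeq windows on GRCm38.p6 were at hand for 9 of the 10 genes, all but Hes1, and for 51 of the 65 others, and the 250 bases ahead of each start were read. The motif TGGGAA was searched on both strands, and it also lies inside the longer form GTGGGAA. The shorter form was present in 21.6% of all 32851 windows, in 1 of the 9 genes (Rbpj) and in 14 of the 51 others. The longer form was present in 5.42% of all windows, in 0 of the 9 and in 6 of the 51. A gene counted if any of its windows matched, and some genes have more than 1 window. The gene counts are therefore not the same measure as the share of windows. Both orientations lay in a window of Rbpj, Hes5, Lfng and Kat2a. Those of Rbpj (the effector) and Hes5 (a HES family target) are shown, with TGGGAA or its reverse complement TTCCCA in capitals, written 5′ to 3′ on the + strand. They lie at chr5:53590096-53590345 for Rbpj and chr4:154960673-154960922 for Hes5.
Rbpj: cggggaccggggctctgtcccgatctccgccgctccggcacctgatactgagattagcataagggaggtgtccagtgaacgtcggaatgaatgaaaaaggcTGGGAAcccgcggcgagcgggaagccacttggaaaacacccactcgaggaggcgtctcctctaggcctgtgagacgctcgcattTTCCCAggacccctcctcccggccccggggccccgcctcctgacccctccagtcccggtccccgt
Hes5: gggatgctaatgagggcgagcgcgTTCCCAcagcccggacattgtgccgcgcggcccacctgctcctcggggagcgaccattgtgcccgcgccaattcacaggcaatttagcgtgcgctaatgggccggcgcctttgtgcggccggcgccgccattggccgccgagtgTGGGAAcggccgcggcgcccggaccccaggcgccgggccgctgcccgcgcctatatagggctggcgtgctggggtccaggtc
RefSeq gives Rbpj a second start, whose window (chr5:53590236-53590485) overlaps the one shown. It holds 1 core, 205 bases before that start, which is the TTCCCA already shown. In the Rbpj window shown the cores begin 149 and 65 bases before the start, and in Hes5 226 and 82 bases before it. Between genotypes, Rbpj differed by 0.10 (SE 0.19) and Hes5 by -0.03 (SE 0.18). A match is a description of the letters, and binding was not measured here.

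Hes1, a basic helix-loop-helix repressor, read 5.34, 5.74 and 5.80 in WT and 5.23, 5.21 and 5.47 in Merit40-/-. Every Merit40-/- array lay below the WT mean, but Merit40-/- replicate 3 was above WT replicate 1, so the groups overlapped. Its level was 5.63 ± 0.25 (SD, n = 3) and 5.30 ± 0.14 (SD, n = 3), a difference of -0.32 (SE 0.16, 95% interval -0.68 to 0.04). Limma gave an unadjusted p of 0.0713 and an adjusted p of 0.999. The difference ranged from -0.47 without WT replicate 1 to -0.24 without WT replicate 3. The megakaryocyte and erythroid marker means, given above, were also lower in Merit40-/-, while 7 of the 8 granulocyte and monocyte markers were higher. Among the WT arrays, replicate 1 had the lowest Hes1 and the highest erythroid mean (6.55). WT replicate 3 had the highest Hes1 and the lowest megakaryocyte mean of the WT arrays (8.30). The part of these markers in the Hes1 difference was not tested.

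**Figure D2:**
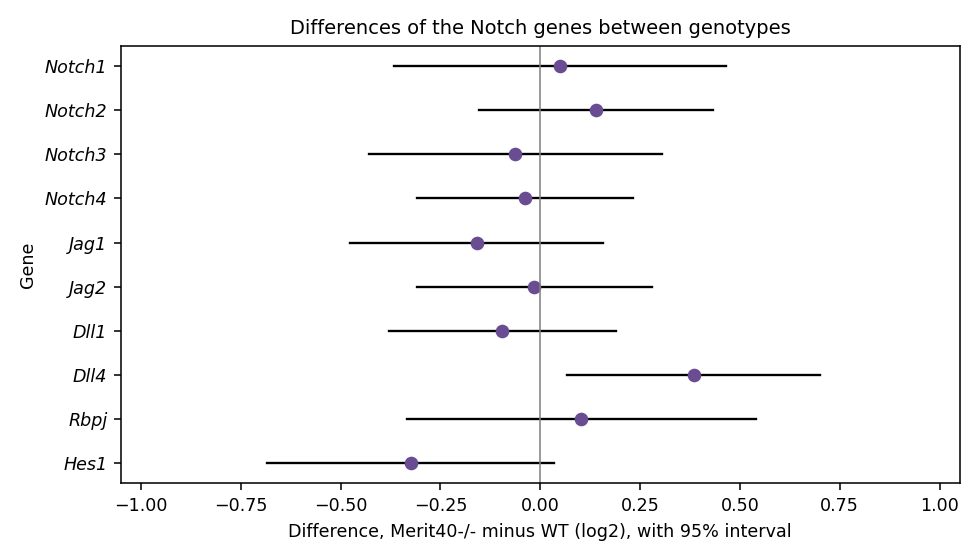
Difference between Merit40-/- and WT (log2) for each of the 10 Notch genes, with the 95% interval from limma as a line, over 3 arrays per genotype. Of the 10 intervals, 9 hold 0, and that of Dll4 runs from 0.07 to 0.70.

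The intervals limit how large a difference these arrays could have missed. For all 10 genes the 95% interval lay within 2-fold in either direction, as it did for 96.4% of all genes, and for 8 of the 10 within 1.5-fold (73.2% of all genes). The bound furthest from 0 was that of Dll4, at 1.63-fold. The intervals reached 0.27 to 0.44 to each side of the difference, beside a median of 0.34 over all genes. These bounds hold for the array reading and not for the transcript, since probe signal includes a background that was not measured here. The typical scatter between arrays of one genotype, as the median pooled SD, was 0.16 for the 10 genes and 0.18 for all genes.

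Leaving out an array can only keep or raise the count of genes without overlap, among the 10 and over all genes. The count among the 10 rose in 5 of 6 cases, and the share over all genes rose in every one. It was 3 of 10 (Jag1, Dll4 and Hes1) without WT replicate 1, beside 16.9% of all genes, and 3 of 10 (Notch4, Jag1 and Dll4) without Merit40-/- replicate 1, beside 19.6%. It was 2 of 10 without WT replicate 2 (beside 19.2% of all genes), without Merit40-/- replicate 2 (19.0%) and without Merit40-/- replicate 3 (19.5%). It stayed at 1 of 10 without WT replicate 3 (19.3%). The median difference of the 10 genes was 0.03 without WT replicate 1 and 0.02 without Merit40-/- replicate 1, so its sign was not stable.

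A further 69 genes of the pathway were listed by role, of which 65 were measured and 4 were not analysed here. Of these 65, 0 passed the test in either direction, where 0.00431% of all genes did. In Merit40-/-, 31 were higher and 34 lower, and the median difference was -0.0056. At an unadjusted p under 0.05 in limma there were 3 (Cir1, Tle1 and Hey1, all lower), against 4.22% of all genes. The arrays did not overlap for 7 of the 65, against 9.05% of all genes. Of the 7, 1 was higher and 6 lower, where 4.84% of all genes were higher and 4.22% lower without overlap. The count of 7 in 65 is near the share over all genes, so it is no result about these genes as a set. The megakaryocyte and erythroid marker means were lower on the same arrays, while 7 of the 8 granulocyte and monocyte markers had a higher mean. The part of these markers in the differences was not tested. Spread by role, the differences show that most points lie near 0 and that Cir1 stands furthest out.

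**Figure D3:**
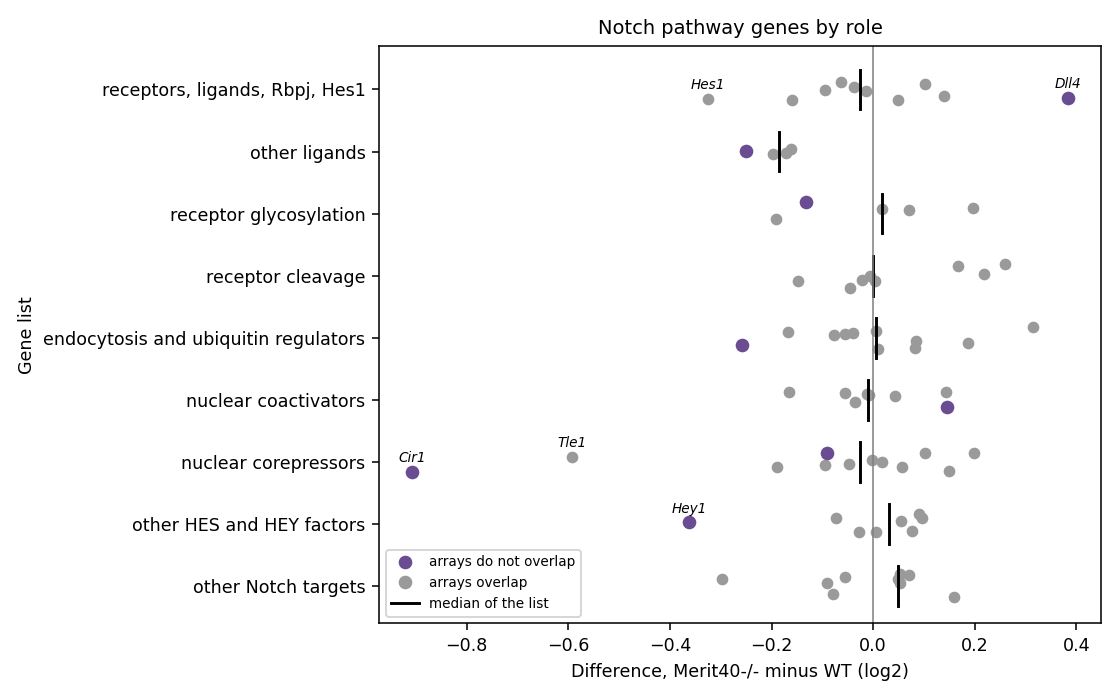
Difference between Merit40-/- and WT (log2) for each measured gene of the Notch pathway, grouped by role, with the median of each list as a black bar. Purple points are genes whose 3 arrays per genotype do not overlap and grey points are the others. The points range from -0.91 (Cir1) to 0.38 (Dll4).

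Among the nuclear corepressors, 5 were higher and 7 lower, 0 of 12 measured genes passed, and the median was -0.03. Cir1, which encodes a protein that binds Rbpj and ties it to a histone deacetylase complex, read 6.55, 6.29 and 5.95 in WT and 5.50, 5.29 and 5.28 in Merit40-/-. The genotypes did not overlap, and its difference of -0.91 (SE 0.17, 1.88-fold) ranked 14 of 23185 genes by unadjusted p in limma, with an adjusted p of 0.999. With each array left out it lay between -1.07 and -0.76. Scrn3, whose start lies next to that of Cir1 on the other strand, read 5.75, 6.08 and 6.34 in WT and 5.91, 5.28 and 6.31 in Merit40-/-, a difference of -0.23 (SE 0.26). Tle1, a Groucho corepressor that HES proteins recruit, read 4.84, 5.32 and 5.56 in WT and 4.88, 4.77 and 4.29 in Merit40-/-. Its difference was -0.59 (SE 0.22), with overlap because of WT replicate 1. Tle3 of the same family had the highest difference of the list, 0.20 (SE 0.21), which was 0.06 without WT replicate 1 and 0.43 without WT replicate 3. The Rbpj partner Spen read 8.23, 8.20 and 8.35 in WT and 8.20, 8.12 and 8.20 in Merit40-/-, a difference of -0.09 (SE 0.11) that was -0.05 without WT replicate 3.

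The coactivators of the Rbpj complex had 3 higher and 5 lower genes, 0 of 8 called, and a median of -0.01. Maml1, the first Mastermind protein, read 6.24, 6.38 and 6.34 in WT and 6.19, 6.66 and 6.08 in Merit40-/-. Its difference was -0.01 (SE 0.17). The sign was not stable, with 0.02 without WT replicate 2, 0.05 without Merit40-/- replicate 1 and 0.10 without Merit40-/- replicate 3. Maml2 had the highest difference, 0.15 (SE 0.12), without overlap between genotypes, and it was 0.09 without WT replicate 2. The acetyltransferase gene Kat2a had the lowest, -0.16 (SE 0.13), or -0.06 without Merit40-/- replicate 2.

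The other HES and HEY genes, 8 in number, had 5 higher and 3 lower members with a median of 0.03, and 0 were called. Hey1, a HES-related repressor and Notch target of the vasculature, read 4.72, 4.44 and 4.995 in WT and 4.38, 4.27 and 4.41 in Merit40-/-. The genotypes did not overlap and the difference was -0.36 (SE 0.16), with an unadjusted p of 0.0492 and an adjusted p of 0.999 in limma. All its arrays but WT replicate 3 lay below the median of all genes. Without WT replicate 3 the difference was -0.22, and without WT replicate 2 it was -0.50. Hes5, the Notch target of neural progenitors, read 4.42, 4.84 and 4.76 in WT and 4.57, 4.40 and 4.97 in Merit40-/-, with a difference of -0.03 (SE 0.18) and no settled direction when arrays were left out (-0.19 to 0.10). Hes6, an antagonist of Hes1, had the highest difference, 0.10 (SE 0.14), which was 0.01 without Merit40-/- replicate 3 and 0.20 without Merit40-/- replicate 1.

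Other known targets of Notch gave small differences. Of 9 measured, 5 were higher and 4 lower, and the median was 0.05. Of the 9, 0 were called (0.00431% of all genes) and 0 were without overlap (9.05% of all genes). At these shares, 0 of 9 is no result about the targets as a set. Nrarp, a feedback inhibitor that Notch induces, read 5.52, 5.56 and 5.44 in WT and 5.09, 5.49 and 5.78 in Merit40-/-, a difference of -0.06 (SE 0.18) that was 0.13 without Merit40-/- replicate 1. Dtx1, a ubiquitin ligase gene induced by Notch in lymphocytes, read 4.64, 4.11 and 4.58 in WT and 4.02, 4.43 and 4.65 in Merit40-/-. Its difference of -0.08 (SE 0.20) was 0.09 without Merit40-/- replicate 1 and 0.02 without WT replicate 1. Bcl11b, a T lineage factor, was the lowest at -0.30 (SE 0.19), or -0.10 without WT replicate 3. The cyclin gene Ccnd1 was the highest at 0.16 (SE 0.12), or 0.09 without Merit40-/- replicate 1.

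**Figure D4:**
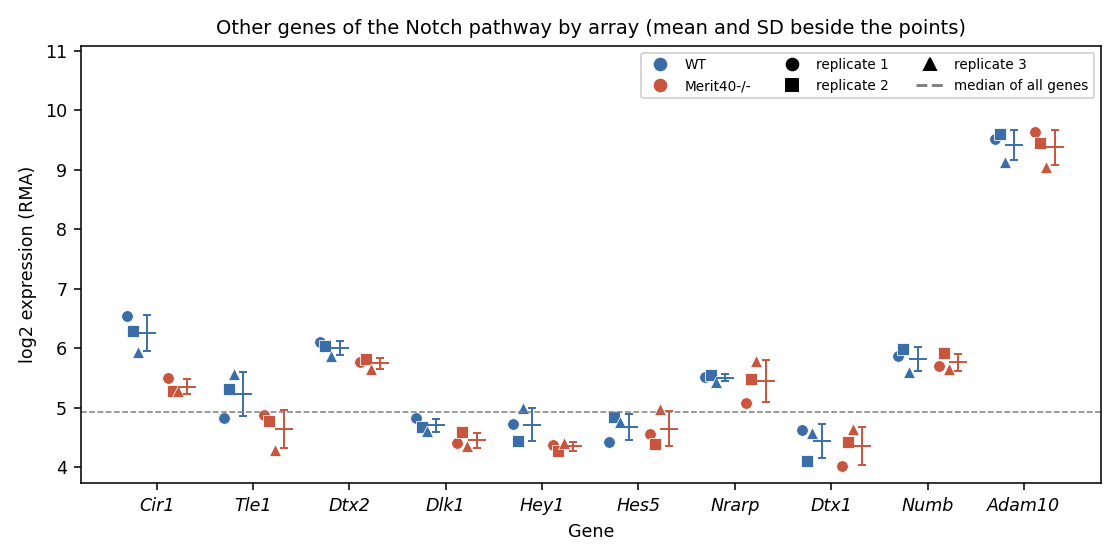
Log2 expression (RMA) on the 3 WT arrays (blue) and the 3 Merit40-/- arrays (red) for 10 further genes of the Notch pathway, with the mean and SD beside each group, replicate numbers as symbols and the median of all genes (4.93) as a dashed line. In Cir1, Dtx2, Dlk1 and Hey1 all red points lie below all blue points, and in Tle1 WT replicate 1 lies among the red points.

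The steps ahead of the nucleus were measured by the genes of receptor glycosylation, cleavage and turnover. Of the 5 glycosylation genes 3 were higher and 2 lower, with a median of 0.02 and 0 called. The Fringe gene Lfng, whose product biases receptors towards Delta-like ligands, read 7.01, 7.06 and 7.53 in WT and 7.05, 6.83 and 7.15 in Merit40-/-, a difference of -0.19 (SE 0.17) that was -0.03 without WT replicate 3, its highest array. Pofut1 encodes the enzyme that adds to receptors the O-fucose on which Fringe acts. It had the highest difference, 0.20 (SE 0.17), which was 0.03 without WT replicate 1 and 0.33 without WT replicate 2. Poglut1, the O-glucosyltransferase of the receptors, was lower on all 3 Merit40-/- arrays than on any WT array, at a difference of -0.13 (SE 0.11) that was -0.07 without Merit40-/- replicate 1.

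In the cleavage list 4 of 8 were higher and 4 lower, with a median of -0.00094 and 0 called. The protease gene Adam10 read 9.52, 9.61 and 9.14 in WT and 9.63, 9.45 and 9.05 in Merit40-/-, and replicate 3 was the lowest array of each genotype. Its difference of -0.05 (SE 0.19) was 0.12 without Merit40-/- replicate 3, 0.05 without WT replicate 2 and 0.0040 without WT replicate 1. Adam17 had the highest difference, 0.26 (SE 0.14), or 0.15 without WT replicate 1, and the presenilin gene Psen2 the lowest, -0.15 (SE 0.22), which was 0.0032 without Merit40-/- replicate 3.

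Of 11 genes that act in endocytosis and ubiquitination of receptors and ligands, 6 were higher and 5 lower, with a median of 0.0059 and 0 called. Dtx2, a Deltex ubiquitin ligase gene, read 6.10, 6.04 and 5.88 in WT and 5.78, 5.82 and 5.65 in Merit40-/-, without overlap, at a difference of -0.26 (SE 0.12, unadjusted p = 0.0650 in limma). The Notch antagonist Numb read 5.87, 5.98 and 5.60 in WT and 5.71, 5.92 and 5.66 in Merit40-/-, a difference of -0.06 (SE 0.14) that was 0.03 without WT replicate 2. Its relative Numbl had the highest difference, 0.31 (SE 0.30), which was 0.07 without WT replicate 3 and 0.59 without WT replicate 1. The 4 further ligand genes were all lower and all below the median of all genes, from -0.25 (Dlk1) to -0.16 (Dner, or -0.06 without Merit40-/- replicate 1). Dlk1, a noncanonical ligand, read 4.82, 4.68 and 4.61 in WT and 4.41, 4.60 and 4.35 in Merit40-/-, without overlap, and did not pass the test (SE 0.13, unadjusted p = 0.0805 in limma).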

How the data were processed

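The authors deposited 1 log2 value for each probe set of each array. The submitters' processing notes name RMA and affy, without versions. Chip definition and genome build: not given in the sources used here. RMA equalises arrays, so a change in total RNA would not be seen. The table held 25206 probe sets on 6 arrays with 0 missing values. Of these, 23185 carried 1 gene symbol and were tested. The other 2021, without a single matched gene symbol, were left unnamed here. Precision is limited by having 3 arrays per genotype.

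The genotype contrast was fitted with limma 3.58.1 under R 4.3.3 (lmFit, eBayes, no further term, 2-sided, Benjamini-Hochberg over 23185 genes, threshold 0.05), tested on simulated data. The labels give same-numbered arrays nothing in common but the number. Alternatives tried were the replicate number as a block, an intensity trend with robust variances, array weights, 2 scalings, 2 filters on dim genes, all probe sets, and arrays left out. The 10 genes, the pathway and marker lists and the tests were chosen with earlier results of these data known. By the naming rule, the text names the 10, the highest and lowest gene of each list and 9 fixed genes. Tle1, Spen, Poglut1, Scrn3, Gm14207 and 0610009E02Rik were added after their values were seen.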

Additional observations from a re-analysis of the deposited data

How the results depend on the processing

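No Notch gene passed under any of the 15 alternatives (lowest adjusted p 0.843 in limma), and 0 of the other pathway genes did. The labels give same-numbered arrays nothing in common but the replicate number. Their deviations correlated at -0.048, -0.0027 and 0.044, and not every array correlated best with its own number. With 3 arrays per genotype, such correlations cannot exclude a shared day of sorting or hybridisation. With the replicate block 1 gene of all passed, and 0 of the 10. Leaving out both Merit40-/- arrays with muscle or osteoclast genes keeps replicate 2, itself above WT for Tnnt3 and Acta1. It also assumes that this lone Merit40-/- array varies like WT. Then 2 genes of all passed, and 6 of the 10 did not overlap (50.9% of all genes). Without the dimmest 50% of genes 5 of the 10 remained and 0 of these did not overlap, as Dll4 was removed.

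Of 541 recomputed gene differences, 508 kept their sign and their side of the threshold and 33 changed sign. Under the replicate block, the intensity trend with robust variances, the filters on dim genes and all probe sets, no difference could change. Signs there were fixed in advance, so the 508 include cases that are no test of stability. The threshold was also a weak test, since only 1 gene of all passed it in the main fit. With single arrays left out, the count without overlap was 1 to 3 and the median -0.086 to 0.034. The lowest and highest differences were -0.15 and 0.16 for Notch1, -0.14 and 0.072 for Notch3, -0.088 and 0.036 for Notch4, -0.10 and 0.055 for Jag2, and -0.052 and 0.23 for Rbpj. They were -0.38 and 0.0032 for Psen2, -0.19 and 0.095 for Hes5, -0.22 and 0.13 for Nrarp, -0.25 and 0.095 for Dtx1, -0.19 and 0.10 for Maml1, -0.19 and 0.12 for Adam10 and -0.17 and 0.028 for Numb. Without both arrays with muscle or osteoclast genes the sign turned for Notch1 (-0.061), Notch3 (0.095), Notch4 (0.0078), Dll1 (0.0028), Dner (0.16), Maml1 (0.33), Adam10 (0.031) and Numb (0.11). With array weights Maml1 stood at 0.0060. The cause of these changes was not tested. The group means of Notch3, Notch4, Jag1, Dll4 and Rbpj lay below the median of all genes. No background level was measured, so how far these genes stand above background is not known.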
